A study of Danio rerio with 18 samples.

Results

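The mitosis and spindle genes of the zebrafish larva were followed across 18 libraries, each made from the RNA of 1 whole larva. Members were found by symbol: the cyclins of the A and B families, Cdc20, the Aurora and Polo-like kinases, the spindle checkpoint, the centromere and kinetochore proteins, the mitotic kinesins, the chromosomal passenger complex, the condensins, topoisomerase 2a and a few factors of the spindle and of cytokinesis. Of the 25266 rows that name a gene in the deposited table, 65 had such a symbol. A further condition was a mean of at least 10 raw reads over the 18 larvae and a symbol that is not a numbered copy. Of the 65 rows, 7 were numbered copies and 5 had a lower mean, which left 53 members. Just inside that limit were ccnb3 with a mean of 15.3 reads and cenph with 23.2, and just outside it kif23 with 8.17 and cenpv with 8.06. All 53 members passed the filter on low counts and were tested, among 22038 genes in all. At this depth 34 of them had a mean of at least 100 reads, and the highest was top2a with 1181. The genes kif14 and ncapd3 have numbered copies in the table, so reads may be split between the copies and their counts are uncertain. One symbol, aurkaip1, matched by its name alone: it encodes a protein that binds Aurora kinase A and is also known as a protein of the mitochondrial ribosome, and it is counted apart from the roles below.

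A cell that enters mitosis condenses its chromosomes, builds a spindle of microtubules and attaches each chromosome to it through a kinetochore. The spindle checkpoint holds the cell until all kinetochores are attached, after which Cdc20 turns on the ubiquitin ligase that destroys cyclin B and the sister chromatids part. Most of these genes are transcribed in the late S, G2 and M phases of dividing cells and are nearly silent in cells that have left the cycle, so in a whole larva their RNA comes mainly from the tissues that still grow, such as the edge of the retina, parts of the brain, the gut, the skin and blood-forming tissue.

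The larvae were of the AB strain, carried no transgene or mutation named in the labels, and were taken whole at 7 days post fertilisation (dpf). They had been sorted at 6 dpf into a resilient and a susceptible archetype, and larvae of each were collected unstressed (basal) or, in the stressed groups, 30 min after they had been stressed for 5 min. The groups were resilient basal with 4 larvae, resilient stressed with 5, susceptible basal with 4 and susceptible stressed with 5. The sources used here do not say how larvae were scored or which clutch or day each belonged to, so p-values measure the spread between these larvae. Basal and stressed libraries come from different larvae.

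Raw reads per library ran from 8452595 to 23801175. Levels are given as CPM, raw counts divided by library sizes that were normalised by the trimmed mean of M values (TMM) and put on the usual per-1000000 scale. A member's log2 CPM, with its mean over the 18 larvae taken away and averaged over the 53 members, gives a score for each larva. The score had a Pearson r of -0.303 with the total reads of the 18 libraries. Markers of several tissues were present in the whole-larva libraries, with a mean summed level of 7788 CPM for 8 genes of epidermis, 1241 CPM for 14 genes of retinal progenitors and 339 CPM for 14 genes of neural stem and progenitor cells. In the resilient stressed group, 3 larvae stood apart in the members' levels: larvae 2 and 3 were low and larva 5 was high. The calls and medians that rest on them are given with and without them.

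The members' levels moved together from larva to larva, whatever their role in mitosis. Over the 18 larvae, a member's Pearson r with the mean of the other 52 had a median of 0.963, and it was above 0.9 for 41 of the 53. With each group's own mean taken away the median was 0.950, and without resilient stressed larvae 2 and 3 it was 0.936, with 34 members above 0.9. The loosest members were mad2l1bp at 0.663, ccnb3 at 0.701, cenpp at 0.763 and aurkaip1 at 0.777, each a gene of few reads except aurkaip1, which had a mean of 305 reads. Between the scores of the 8 role groups, the 28 pairwise r values lay between 0.959 and 0.990. Duplicated genes of the zebrafish moved alike as well, with r of 0.973 between prc1a and prc1b and 0.903 between bub1ba and bub1bb. These correlations are across larvae whose values share a library and its normalisation, and they are a description of the 18 libraries.

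**Figure D1:**
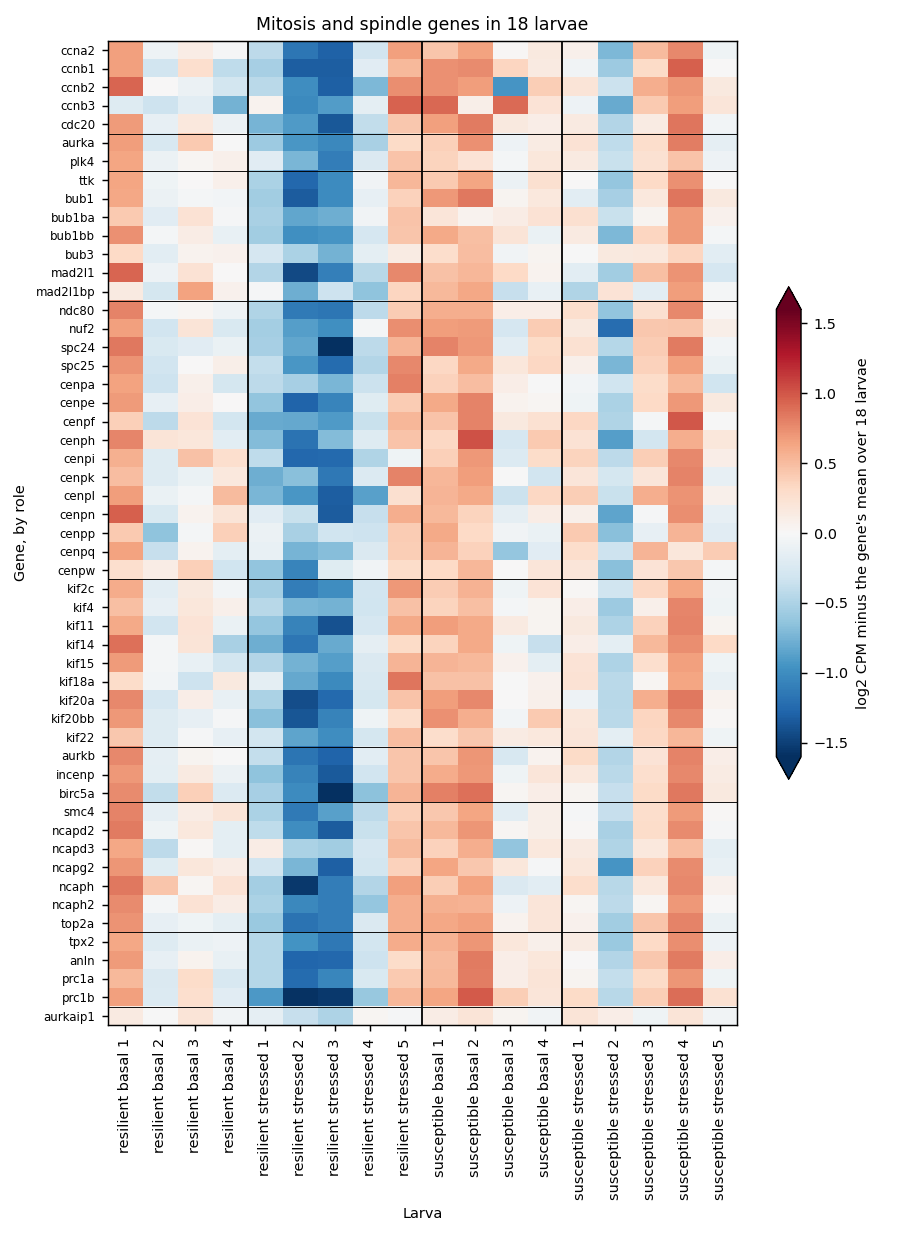
Level of each of the 53 members (rows, grouped by role) in each of the 18 larvae (columns, grouped by archetype and condition), as log2 CPM minus the gene's mean over all larvae. Whole columns share a colour across roles: resilient stressed larvae 2 and 3 are low, and resilient basal larva 1, resilient stressed larva 5, susceptible basal larvae 1 and 2 and susceptible stressed larva 4 are high.

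Larvae of 1 group differed widely in these genes. Summed over the 53 members, the level was 1278, 727, 869 and 777 CPM in the resilient basal larvae, a mean of 913 ± 250.3 (SD, n = 4). In the resilient stressed larvae it was 576, 399, 385, 670.3 and 1143 CPM, a mean of 635 ± 309 (n = 5). Larvae 2 and 3 of that group had the lowest sums of all 18 larvae, while larva 5 lay inside the range of the basal larvae. The susceptible basal larvae had 1174, 1278, 833 and 890.4 CPM, a mean of 1044 ± 216 (n = 4), and the susceptible stressed larvae 874, 591, 1004, 1354 and 811 CPM, a mean of 927 ± 282 (n = 5). The 4 groups overlapped, and the highest larva of the resilient stressed group had 2.97 times the sum of the lowest. The ratio was 1.76 among resilient basal, 1.53 among susceptible basal and 2.29 among susceptible stressed larvae.

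The spread between larvae was wider for the members than for other genes. The median standard deviation of a member's log2 CPM within its group was 0.68 in resilient stressed, 0.45 in susceptible stressed, 0.39 in resilient basal and 0.33 in susceptible basal larvae. For the 18155 tested genes in the same range of levels the medians were 0.21, 0.18, 0.19 and 0.20. The same larvae made the spread for nearly every member: resilient stressed larvae 2 and 3 were the lowest pair of their group for 47 of 53 members, and larva 5 was the highest for 52. Resilient basal larva 1 was the highest of its group for 49 members, susceptible stressed larva 4 for 51, and susceptible stressed larva 2 was the lowest for 49. In RNA from a whole larva, fewer dividing cells and less of these RNAs per cell cannot be told apart.

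**Figure D2:**
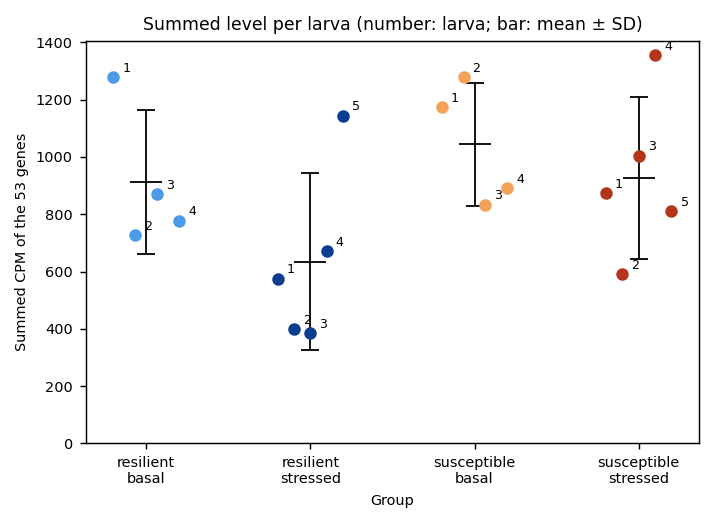
Summed level of the 53 members in each larva, in CPM, by group; points are larvae, and lines and bars are the mean and SD. The resilient stressed larvae run from 385 to 1143 CPM, and the ranges of the 4 groups overlap.

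The first comparison sets stressed against basal resilient larvae. The members were lower after the stress in nearly every case, but by amounts that mostly did not exceed the spread between larvae. Only cenpi, a subunit of the inner kinetochore, fell past the threshold, by 0.95 on the log2 scale (SE 0.28, adjusted p = 0.0479 by edgeR's quasi-likelihood test with Benjamini-Hochberg adjustment over all genes). That is 1 of 53 members, beside 3.59% of all tested genes that were called lower, 2.76% called higher and 6.35% called in either direction, so the share called was no higher than the background. At an unadjusted p under 0.05 stood 9 of 53 members (17.0%), all lower, against 11.5% of all genes that were lower and 21.6% in either direction. Without the name match aurkaip1 it was 8 of 52 (15.4%). The log2 fold change was negative for 52 of 53 members and for 49.2% of all genes, and its median was -0.53 for the members and 0.0041 for all genes. It ran from -0.97 for cenpl to 0.34 for ccnb3. Since the members moved together within each larva, these 53 signs are not 53 separate observations.

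Which larvae carried the difference could be read from the single values. Resilient stressed larvae 2 and 3 lay below every resilient basal larva for 52 and 51 of the 53 members, larva 1 for 46, larva 4 for 35 and larva 5 for 0. Low values were not confined to that group: susceptible stressed larva 2 lay below every resilient basal larva for 45 members. The other susceptible stressed larvae did so for 0 to 3. These counts were made for the members alone, with no share over all genes. Members moved together within a larva, so each count is not a set of separate observations. For no member were all stressed larvae below all basal ones, against 4.36% of all genes tested, or above them, against 4.11%. Without larvae 2 and 3 the median log2 fold change was -0.21, with 48 of 53 negative and 0 called, and cenpi stood at -0.62 (adjusted p = 0.322). Without larva 5 the median was -0.86 and 14 members were called lower, among them aurka, plk4, cdc20, mad2l1, ndc80, cenpl, incenp, birc5a, smc4 and prc1b. Larva 5 was singled out by the members' own levels. The share of all genes called in that fit is not given here, so the 14 have no background beside them. The call of cenpi was lost (0 called) when any 1 of 12 larvae was left out, which were resilient basal 1, 3 and 4, resilient stressed 1 to 4, susceptible basal 1 and 4, and susceptible stressed 1, 3 and 5. Its log2 fold change in those fits stayed between -1.0 and -0.81. Where the larva left out was susceptible, the estimate was -0.947 to -0.942 and edgeR's adjusted p 0.0571 to 0.0588, just past the threshold. Where it was resilient, the adjusted p was 0.0577 to 0.154. DESeq2 called 2 members, cenpi and cenpl, and limma voom with sample quality weights added ncaph. In the authors' deposited table the same pair passed an adjusted p of 0.05: cenpi at 0.95 (p = 0.0181) and cenpl at 0.98 (p = 0.0422), coded there as basal over stressed. Of the 25266 rows that name a gene, 1796 passed there, so the share of members was no higher than that background. For DESeq2 and limma voom the share of all genes is not given here.

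In susceptible larvae the stress left no member past the threshold. edgeR called 0 of 53, as it called 0% of all genes, and 0 members stood at an unadjusted p under 0.05, against 7.45% of all genes. DESeq2 and limma voom called 0 members as well. The members' median log2 fold change was -0.18, with 49 of 53 negative, and the smallest adjusted p was 0.851, for cenph. The extremes were ccnb3 at -0.50 and kif14 at 0.15. The stressed and basal susceptible larvae overlapped for every member, while 1.3% of all genes had all stressed larvae higher and 1.43% all lower.

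Among basal larvae no member passed the threshold between the archetypes. edgeR, DESeq2 and limma voom called 0 of 53 members (0% of all genes by edgeR), and 1 member, ccnb3, stood at an unadjusted p under 0.05, higher in susceptible larvae, against 3.04% of all genes that were higher and 5.95% in either direction. The median log2 fold change of susceptible over resilient larvae was 0.16, positive for 49 of 53. For ccnb3 alone every susceptible basal larva lay above every resilient one, which held in that direction for 1.63% of all genes and in the other for 1.66%, with 0 members.

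After the stress all 53 members had a higher mean estimate in susceptible than in resilient larvae, where 49.4% of all genes did, with a median log2 fold change of 0.52. Yet edgeR called 0 of 53, against 1.77% of all genes called higher and 3.55% called in either direction. The nearest were cenpi at 0.93 (SE 0.26, adjusted p = 0.0524) and cenpl at 1.00 (SE 0.29, adjusted p = 0.0629). At an unadjusted p under 0.05 stood 12 members (22.6%), all higher, against 10.3% of all genes that were higher and 19.9% in either direction. Without aurkaip1 it was 11 of 52 (21.2%). For no member did all susceptible stressed larvae lie above all resilient stressed ones, against 2.46% of all genes, or below them, against 2.52%. DESeq2 called cenpi and cenpl, and limma voom called these and also kif14 and prc1b. In the authors' deposited table cenpi and cenpl passed, at -0.93 (p = 0.0149) and -1.0 (p = 0.0255) coded as resilient over susceptible. There 1457 of the 25266 rows that name a gene passed, again no lower a share than that of the members. This comparison uses the same 5 resilient stressed larvae as the first, so each gives its own values but not a separate sample. Without resilient stressed larvae 2 and 3 the median was 0.20, with 6 members negative and 0 called, and without larva 5 it was 0.86 with 21 called higher. The 21 also stand without the share of all genes called in that fit. Leaving out susceptible stressed larva 2, the lowest of its group, gave 2 calls.

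Whether the response to stress differed between the archetypes was tested as an interaction. edgeR called 0 of 53 members, against 0.141% of all genes (0.0681% with a positive and 0.0726% with a negative difference), and 2 members, cenpi and cenpl, stood at an unadjusted p under 0.05 with a positive difference, against 6.28% of all genes with a positive one and 13.1% in either direction. DESeq2 and limma voom called 0 members. The median difference, susceptible minus resilient, was 0.35, positive for 51 of 53, and without resilient stressed larvae 2 and 3 it was 0.04 with 23 negative. Those larvae were chosen for their low levels of the members, so leaving them out lowers this difference by that choice. With no member called in the main fit, a response in resilient larvae alone was not shown for any member.

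**Figure D3:**
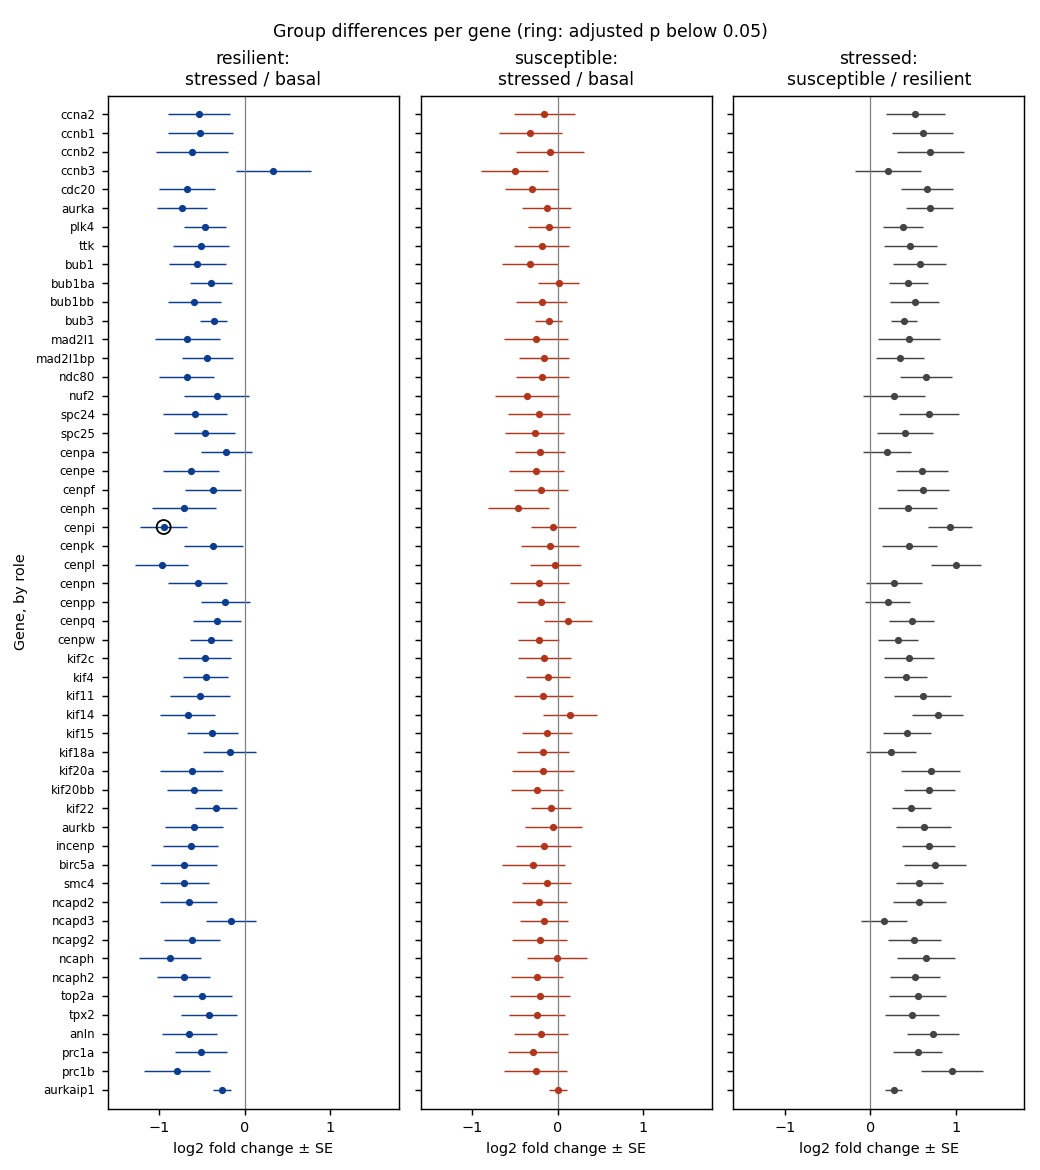
Estimated log2 fold change of each member with its standard error, for stress in resilient larvae, stress in susceptible larvae and archetype among stressed larvae; a ring marks an adjusted p under 0.05. In the first comparison 52 of 53 estimates lie below 0 and 1, cenpi, carries a ring; in the third all 53 lie above 0 and none carries one.

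Cyclins drive the cyclin-dependent kinase that starts mitosis, and Cdc20 activates their destruction. The 5 members had a median log2 fold change of -0.53 with stress in resilient larvae, -0.30 in susceptible larvae, and 0.61 between archetypes after stress. Cyclin A2, ccna2, acts in S phase and at entry into mitosis. It stood at 33.3, 19.9, 22.8 and 20.8 CPM in the resilient basal larvae and 15.7, 9.39, 8.55, 17.1 and 33.4 CPM in the resilient stressed ones. In the susceptible groups it stood at 28.9, 33.1, 21.3 and 23.6 CPM (basal) and 22.4, 12.7, 30.1, 35.96 and 20.1 CPM (stressed). Stressed larva 5 of the resilient group was as high as the highest basal larva while larvae 2 and 3 were lower than any other of the 18. The stress difference in resilient larvae was -0.53 (SE 0.36, adjusted p = 0.431). The cyclins ccnb1 and ccnb2, which carry cells through mitosis, stood at -0.52 and -0.62, and cdc20 at -0.67, none called.

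Cyclin B3, ccnb3, known in other animals for its part in anaphase and in meiosis, followed the other members loosely and had the lowest read counts of all members. Its level was 0.823, 0.744, 0.849 and 0.521 CPM in resilient basal larvae and 1.96, 1.05, 1.94 and 1.15 CPM in susceptible basal larvae, where the groups did not overlap. The log2 difference was 1.04 (SE 0.44, adjusted p = 0.813). The stressed larvae had 1.02, 0.412, 0.462, 0.862 and 1.997 CPM in the resilient and 0.913, 0.496, 1.34, 1.62 and 1.13 CPM in the susceptible group. Both ranges were wide and covered most of the basal values, and the stress differences were 0.34 (SE 0.44) in resilient and -0.50 (SE 0.39) in susceptible larvae. At a mean of 15.3 reads these levels carry much counting error.

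Of the mitotic kinases, Aurora A (aurka) works at the centrosome and spindle poles and Polo-like kinase 4 (plk4) starts the copying of the centriole. In resilient larvae aurka stood at 14.99, 7.82, 12.6 and 9.29 CPM (basal) and 6.19, 4.86, 4.50, 6.49 and 11.5 CPM (stressed). Larvae 1 to 4 after stress lay below every basal larva, and larva 5 lay among the basal ones. In susceptible larvae it stood at 12.2, 15.5, 8.84 and 10.2 CPM (basal) and 10.95, 7.02, 11.4, 16.5 and 8.42 CPM (stressed), with wide overlap. The stress differences were -0.74 (SE 0.29, adjusted p = 0.149) in resilient and -0.13 (SE 0.28, adjusted p = 0.973) in susceptible larvae. The centriole kinase plk4 stood at 16.1, 9.74, 10.6 and 11.03 CPM in basal resilient and 9.17, 6.18, 4.73, 8.79 and 14.3 CPM in stressed resilient larvae. It showed the same larvae at the extremes, and its stress difference was -0.46 (SE 0.25, adjusted p = 0.298). In susceptible larvae plk4 had 13.4, 12.1, 10.2 and 11.8 CPM (basal) and 11.5, 8.10, 12.3, 14.3 and 9.77 CPM (stressed), which overlapped, at -0.10 (SE 0.24).

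The spindle checkpoint delays anaphase while kinetochores are unattached, and ttk is the kinase that starts it. Further checkpoint proteins are bub1, bub1ba, bub1bb, bub3 and mad2l1, while mad2l1bp takes the checkpoint's inhibitor of Cdc20 apart. All 7 members had negative estimates in stressed resilient larvae, from -0.67 for mad2l1 to -0.36 for bub3, with a median of -0.51, and none was called. The kinase ttk had 35.1, 21.5, 22.6 and 23.8 CPM in basal resilient and 15.8, 9.39, 11.1, 21.8 and 32.6 CPM in stressed resilient larvae, at -0.51 (SE 0.33, adjusted p = 0.401). Its values in susceptible larvae were 30.3, 34.9, 21.1 and 26.9 CPM (basal) and 22.6, 14.6, 28.2, 37.4 and 22.7 CPM (stressed), at -0.18 (SE 0.32). Resilient stressed larvae 2 and 3 again had its lowest values. For bub3 the resilient larvae had 22.9, 16.3, 19.01 and 19.3 CPM (basal) and 15.2, 12.8, 10.8, 16.5 and 20.1 CPM (stressed), and the susceptible ones 22.4, 25.9, 17.6 and 18.9 CPM (basal) and 18.3, 20.4, 20.7, 23.4 and 16.3 CPM (stressed). Its larvae were closer together than those of ttk, and its stress difference in resilient larvae, the smallest of the 7, had the smallest error: -0.36 (SE 0.16, adjusted p = 0.197).

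Kinetochore and centromere proteins form the largest group, with 15 members. The centromere is marked by the histone cenpa; the inner kinetochore that sits on it includes cenph, cenpi, cenpk, cenpl, cenpn, cenpp, cenpq and cenpw; the outer complex of ndc80, nuf2, spc24 and spc25 holds the microtubule; cenpe is a motor that moves chromosomes to the spindle equator and cenpf a large protein of the outer layer. All 15 had negative estimates with stress in resilient larvae, with a median of -0.47 and a range from -0.97 for cenpl to -0.22 for cenpa. The called member cenpi had 7.68, 4.40, 7.13 and 6.17 CPM in the resilient basal larvae, 6.34 ± 1.44 (SD, n = 4), and 3.84, 2.06, 2.08, 3.62 and 4.86 CPM in the resilient stressed larvae, 3.29 ± 1.21 (SD, n = 5). Larvae 1 to 4 of the stressed group lay below all basal larvae, and larva 5 lay above the lowest of them, so the groups overlapped. In the susceptible groups cenpi had 6.71, 8.38, 4.36 and 6.31 CPM (basal) and 6.60, 3.80, 6.79, 8.82 and 5.51 CPM (stressed), with means of 6.44 and 6.31 CPM, and its stress difference there was -0.052 (SE 0.26, adjusted p = 0.994). The interaction for cenpi was 0.89 (SE 0.38, adjusted p = 0.324).

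Another subunit of the inner kinetochore, cenpl, named here after its values were seen, had the estimate farthest from 0. The resilient larvae had 4.75, 2.73, 2.89 and 4.26 CPM (basal) and 1.72, 1.48, 1.10, 1.55 and 3.56 CPM (stressed), and the susceptible ones 4.36, 4.54, 2.30 and 3.73 CPM (basal) and 3.92, 2.27, 4.50, 4.93 and 3.13 CPM (stressed). As with cenpi, only larva 5 of the stressed resilient group lay inside the basal range, and the stress difference was -0.97 (SE 0.31, adjusted p = 0.0725). The other inner subunits were nearer to 0, from -0.71 for cenph and -0.55 for cenpn to -0.32 for cenpq and -0.23 for cenpp, each with an SE between 0.25 and 0.37. In the outer complex ndc80 stood at -0.68, spc24 at -0.58, spc25 at -0.47 and nuf2 at -0.33. The motor cenpe had 48.8, 27.6, 32.7 and 30.3 CPM in basal resilient and 19.6, 12.4, 14.4, 26.5 and 40.03 CPM in stressed resilient larvae, at -0.63 (SE 0.32, adjusted p = 0.277). In susceptible larvae cenpe had 46.2, 52.7, 31.6 and 30.9 CPM (basal) and 28.9, 21.3, 37.9, 49.2 and 33.8 CPM (stressed), which overlapped.

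**Figure D4:**
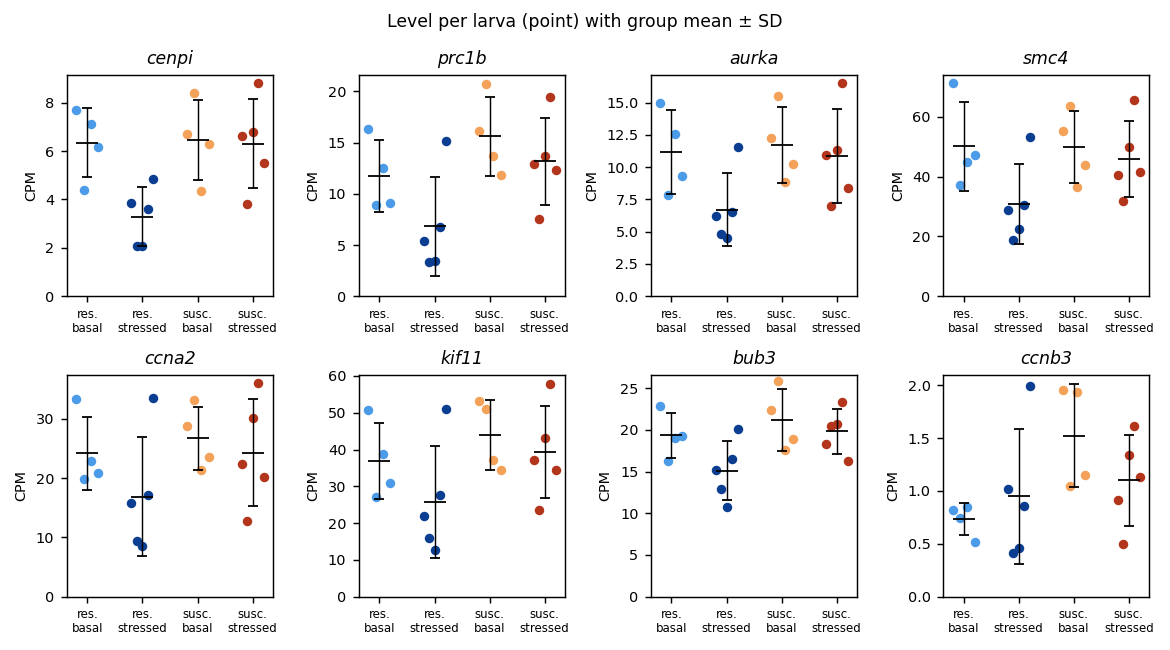
Level in CPM of 8 members in each larva, by group, with group mean and SD; each panel has its own axis from 0. The resilient stressed larvae run from 2.06 to 4.86 CPM for cenpi and from 12.6 to 51.0 CPM for kif11, and for ccnb3 the 2 basal groups do not overlap.

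Mitotic kinesins slide, bundle or shorten the microtubules of the spindle. The 9 members had a median of -0.47 with stress in resilient larvae, -0.15 in susceptible larvae and 0.48 between archetypes after stress, and none was called. The motor kif11, which pushes the spindle poles apart, had 50.7, 27.05, 38.8 and 31.01 CPM in basal resilient and 21.8, 15.8, 12.6, 27.7 and 50.97 CPM in stressed resilient larvae. Its stressed range, from the lowest to the highest of all resilient larvae, enclosed the basal range, and the difference was -0.52 (SE 0.35, adjusted p = 0.426). In susceptible larvae it had 53.1, 51.01, 37.05 and 34.5 CPM (basal) and 37.2, 23.7, 43.2, 57.9 and 34.5 CPM (stressed). The cytokinesis motor kif14 had 5.48, 2.85, 3.39 and 1.998 CPM in basal resilient and 1.65, 1.24, 1.62, 2.64 and 3.65 CPM in stressed resilient larvae. Its values in susceptible larvae were 3.80, 4.54, 2.78 and 2.24 CPM (basal) and 3.17, 2.60, 4.26, 5.0 and 3.69 CPM (stressed). The groups overlapped; the stress differences were -0.67 (SE 0.32, adjusted p = 0.244) in resilient and 0.15 (SE 0.31, adjusted p = 0.970) in susceptible larvae, and the archetype difference after stress was 0.79 (SE 0.30, adjusted p = 0.150). The remaining 7 kinesins, among them kif2c, kif4, kif15, kif20bb and kif22, lay between -0.62 for kif20a, a motor of the cleavage furrow, and -0.17 for kif18a, which limits chromosome movement before anaphase.

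The chromosomal passenger complex corrects faulty attachments and later marks the cleavage site; aurkb is its kinase, incenp its scaffold and birc5a (survivin) one of its targeting subunits. Its 3 members had close estimates with stress in resilient larvae, from -0.71 to -0.59. The scaffold incenp stood at 60.7, 33.5, 41.4 and 35 CPM in basal resilient and 23.97, 17.9, 14.7, 30.3 and 51.1 CPM in stressed resilient larvae, at -0.63 (SE 0.33, adjusted p = 0.280). In susceptible larvae it stood at 56.8, 60.7, 35.7 and 42.8 CPM (basal) and 42.2, 27.8, 45.3, 64.1 and 41.1 CPM (stressed), at -0.16 (SE 0.32). Larvae 1 to 4 of the stressed resilient group were below all basal ones, as for cenpi.

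Condensins fold chromosomes, and topoisomerase 2a untangles their strands. The 7 members had the lowest median of the 8 role groups with stress in resilient larvae, -0.65, and their estimates ran from -0.87 for ncaph to -0.16 for ncapd3; none was called. The regulatory subunits ncapd2, ncapg2 and ncaph2 stood at -0.65, -0.62 and -0.71. The shared core subunit smc4 had 71.5, 37.1, 44.8 and 47.4 CPM in basal resilient and 28.8, 18.8, 22.5, 30.7 and 53.4 CPM in stressed resilient larvae, at -0.70 (SE 0.29, adjusted p = 0.167). Its susceptible larvae had 55.4, 63.7, 36.6 and 44.03 CPM (basal) and 40.6, 31.8, 49.9, 65.8 and 41.5 CPM (stressed), at -0.13 (SE 0.29). Only larva 5 of the stressed resilient group reached the basal range of smc4. For top2a the resilient larvae had 127, 69.9, 72.8 and 68.7 CPM (basal) and 50.5, 33.7, 35.6, 65.6 and 115 CPM (stressed), and the susceptible ones 117, 121, 79.4 and 88.1 CPM (basal) and 80.1, 52.05, 104, 133 and 71.4 CPM (stressed). Basal larva 1 stood well above the other 3 of its group, stressed larvae 1 to 4 lay below all of them, and the difference was -0.49 (SE 0.35, adjusted p = 0.454).

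Among the factors of spindle assembly and cytokinesis, tpx2 activates Aurora A on spindle microtubules, anln (anillin) organises the cleavage furrow, and prc1a and prc1b bundle the central spindle. Their median was -0.58 with stress in resilient larvae and 0.64 between archetypes after stress, and none of the 4 was called. The bundler prc1b had 16.4, 8.87, 12.6 and 9.12 CPM in basal resilient and 5.41, 3.38, 3.46, 6.78 and 15.11 CPM in stressed resilient larvae, at -0.79 (SE 0.39, adjusted p = 0.250). In susceptible larvae it had 16.2, 20.7, 13.7 and 11.9 CPM (basal) and 12.9, 7.56, 13.6, 19.4 and 12.3 CPM (stressed), and the archetype difference after stress was 0.95 (SE 0.36, adjusted p = 0.151). Stressed resilient larvae 2 and 3 had its lowest values of all, and larva 5 was near the highest basal larva. For tpx2 the values were 70.4, 39.6, 42.2 and 43.1 CPM in basal resilient and 33.1, 23.5, 20.6, 37.2 and 68.6 CPM in stressed resilient larvae, and 67.3, 74.5, 51.6 and 48.1 CPM in susceptible basal and 50.1, 30.1, 56.8, 76.5 and 42.9 CPM in susceptible stressed larvae. The resilient groups overlapped through larva 5 alone, and the stress difference was -0.42 (SE 0.33, adjusted p = 0.508). The name match aurkaip1 varied least of the members between resilient stressed larvae, with a highest over lowest ratio of 1.44 there against a median of 3.29 over the members and 5.10 for ncaph.

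Genes outside the set with the same pattern were sought among the other 21985 tested genes by their r with the members' score over the 18 larvae. It exceeded 0.9 for 155 genes. Named among the 10 closest are numa1, a spindle pole protein, at 0.990, mki67, which coats mitotic chromosomes, at 0.989, racgap1, a protein of the central spindle, at 0.983, iqgap3 at 0.983, ube2c, an enzyme that works with the anaphase-promoting complex, at 0.980, the import factor kpna2 at 0.980 and the chromatin protein hmgb2a at 0.979; the other 3 have no descriptive symbol. None of the 10 closest was tested for its likeness, since they were chosen by it.

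Lists of other cell cycle genes were set beside the members. A list of 36 other mitosis genes had a score that followed the members' with r of 0.997 over the 18 larvae, and 31 genes of DNA replication and 23 regulators of G1 and S phase followed with 0.962 and 0.952. Without resilient stressed larvae 2 and 3 these values were 0.995, 0.922 and 0.907, and without larva 5 they were 0.997, 0.961 and 0.951. The 29 genes of the anaphase-promoting complex and cohesin, many of which cells use outside mitosis, followed with 0.676, which was 0.392 without larvae 2 and 3 and 0.651 without larva 5. For 19 cell cycle inhibitors and p53 targets the r was -0.659, and it was -0.369 without larvae 2 and 3 and -0.696 without larva 5. With group means taken away the inhibitors stood at -0.383. On that measure other mitosis genes stood at 0.997, replication at 0.958, G1 and S regulators at 0.936 and the anaphase-promoting complex and cohesin at 0.709. These lists share no row with the members, but their values come from the same libraries.

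**Figure D5:**
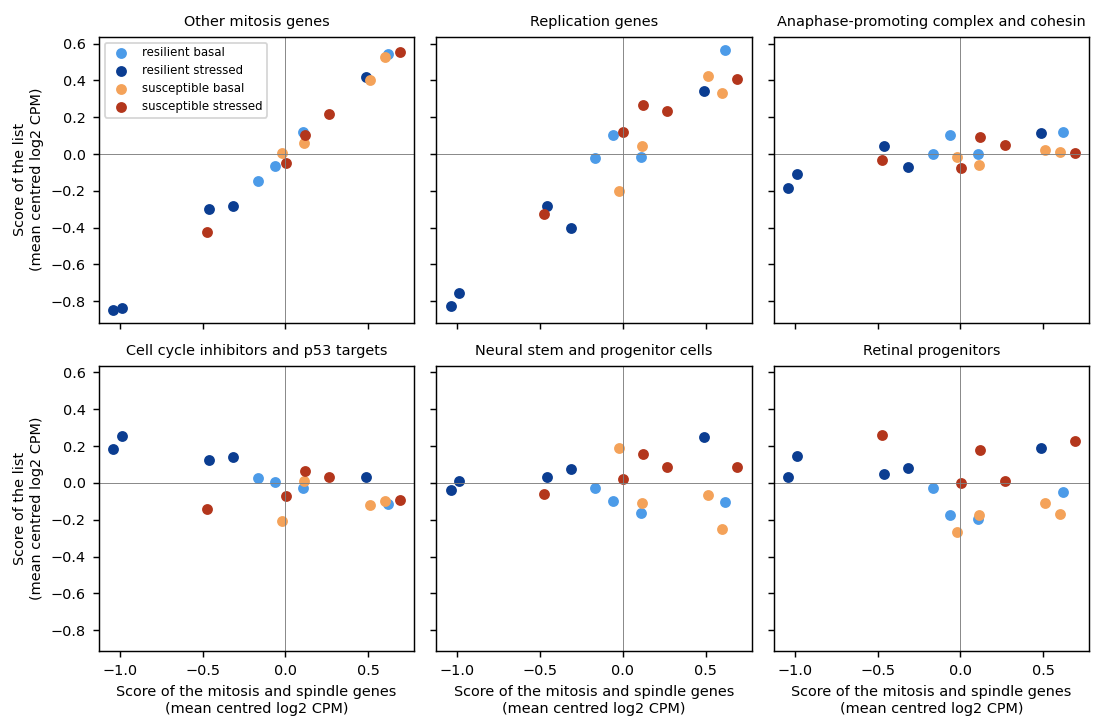
Score of 6 gene lists (mean log2 CPM minus each gene's mean over the 18 larvae) against the members' score, 1 point per larva, coloured by group. Other mitosis and replication genes have higher scores where the members do, while the inhibitors tend to have lower ones. The anaphase-promoting complex and cohesin list follows less closely (r of 0.676). The neural and retinal progenitor lists have r of -0.026 and -0.197.

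With stress in resilient larvae, where 3.59% of all genes were called lower and 2.76% higher, 0 of the 36 other mitosis genes were called by edgeR. Of these 36, 33 had negative estimates with a median log2 fold change of -0.46, and 6 stood at an unadjusted p under 0.05. Of the 31 replication genes 2 fell, mcm4 by 0.80 (SE 0.21, adjusted p = 0.0302) and mcm6 by 0.90 (SE 0.26, adjusted p = 0.0487), both subunits of the replicative helicase. The estimates of 29 of the 31 were negative, with a median of -0.56, and 18 stood at an unadjusted p under 0.05, against 21.6% of all genes in either direction. Among the 23 G1 and S regulators 2 were called: rb1, which restrains the E2F factors, fell by 0.65 (SE 0.14, adjusted p = 0.0128) and e2f1, which turns on S phase genes, fell by 0.81 (SE 0.23, adjusted p = 0.0399). Of these 23, 16 had negative and 7 positive estimates, with a median of -0.19. Of the 29 genes of the anaphase-promoting complex and cohesin 1 was called, anapc1, which fell by 0.52 (SE 0.14, adjusted p = 0.0323). That share was no higher than the share of all genes called lower. The list had 17 negative and 12 positive estimates, with a median of -0.055. Of the 19 inhibitors and p53 targets 2 rose, cdkn1bb by 0.47 (SE 0.08, adjusted p = 0.00411) and cdkn1ca by 0.47 (SE 0.11, adjusted p = 0.0224), relatives of the mammalian inhibitors p27 and p57. In that list 13 estimates were positive and 6 negative, with a median of 0.19. Between stressed archetypes, where 1.77% of all genes were called higher, rb1 (0.54, SE 0.13, adjusted p = 0.0316), e2f1 (0.85, SE 0.21, adjusted p = 0.0357) and the helicase factor gins2 (0.91, SE 0.25, adjusted p = 0.0483) were higher in susceptible larvae. For stress in susceptible larvae and for the basal archetypes edgeR called no gene of the whole table, so none of these lists held a call.

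These calls also changed when resilient stressed larvae 2 and 3 or larva 5 were left out. In fits of the lists that were added after seeing the data, leaving out resilient stressed larvae 2 and 3 left no list gene called in either comparison. The median with stress in resilient larvae was then -0.17 for other mitosis genes and -0.30 for replication genes, and mcm4 stood at -0.57 (SE 0.21, adjusted p = 0.225), mcm6 at -0.62 (SE 0.26, adjusted p = 0.306), rb1 at -0.46 (SE 0.13, adjusted p = 0.122), e2f1 at -0.62 (SE 0.25, adjusted p = 0.292) and anapc1 at -0.42 (SE 0.14, adjusted p = 0.197). The inhibitor cdkn1bb was then at 0.38 (SE 0.08, adjusted p = 0.0566) and cdkn1ca at 0.53 (SE 0.13, adjusted p = 0.088). The estimate of cdkn1ca was farther from 0 than in the main fit (0.47, SE 0.11), so its call was lost without a smaller difference. Without larva 5 the calls were 16 lower of 31 replication genes, 4 of 36 other mitosis genes, 4 of 23 G1 and S regulators and 4 of 29 genes of the anaphase-promoting complex and cohesin, with medians of -0.78 for replication and -0.76 for other mitosis genes. These counts have no share of all genes from the same fit beside them. Between stressed archetypes gins2 stood at 0.69 (adjusted p = 0.369) without larvae 2 and 3 and at 1.23 (adjusted p = 0.00489) without larva 5.

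Markers of tissues that hold dividing cells followed the members less closely than the mitosis, replication and G1/S lists did. Over the 18 larvae the r of a list's score with the members' score was -0.026 for 14 genes of neural stem and progenitor cells, -0.197 for 14 of retinal progenitors, -0.104 for 7 of germ cells, 0.0074 for 8 of intestinal epithelium, 0.098 for 8 of muscle progenitors, 0.189 for 8 of epidermis, 0.474 for 10 of blood progenitors and thymus, and 0.497 for 8 of fin fold and cartilage. With group means taken away several of these moved: the neural list stood at 0.285, the retinal at 0.250, germ cells at -0.354, intestine at 0.156, muscle at 0.196, epidermis at 0.165, blood and thymus at 0.492 and fin fold and cartilage at 0.553. Without resilient stressed larvae 2 and 3 the values, in the order first given, were -0.077, -0.085, -0.167, 0.229, 0.353, 0.294, 0.324 and 0.497. Without larva 5 they were -0.168, -0.288, -0.095, -0.074, 0.022, 0.275, 0.452 and 0.469. The germ cell list, which also holds the gonad gene gsdf at a mean of 6.52 CPM, had a mean summed level of 16.6 CPM. That was the lowest of these lists, so counting error limits its r.

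The score of the retinal list was higher in stressed than in basal larvae of both archetypes. It ran from -0.19 to -0.029 in resilient basal, 0.029 to 0.19 in resilient stressed, -0.27 to -0.11 in susceptible basal and -0.0014 to 0.26 in susceptible stressed larvae, so that basal and stressed larvae did not overlap. Of its 14 genes 3 had negative estimates with stress in resilient larvae, with a median of 0.20 and 7 at an unadjusted p under 0.05, and 2 had negative estimates in susceptible larvae, with a median of 0.37, 9 at an unadjusted p under 0.05 and 0 called. Summed, the list held 1129 to 1449 CPM (basal) and 963 to 1499.6 CPM (stressed) in resilient, and 1183 to 1399.7 CPM and 1135 to 1543 CPM in susceptible larvae, which overlapped. The neural list held 296 to 333 CPM in basal and 329 to 393 CPM in stressed resilient larvae, and 304 to 367 CPM and 331 to 368 CPM in the susceptible basal and stressed larvae.

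Beside the 2.76% of all genes called higher with stress in resilient larvae, 2 of 14 neural, 2 of 14 retinal and 1 of 8 muscle genes were called higher. They were sox2 (0.23, SE 0.06, adjusted p = 0.0362), sox3 (0.39, SE 0.09, adjusted p = 0.0163), rx1 (0.48, SE 0.13, adjusted p = 0.0331), atoh7 (0.94, SE 0.23, adjusted p = 0.0225) and pax7b (0.55, SE 0.14, adjusted p = 0.0294). Negative estimates were given by 5 of the 14 neural and 3 of the 8 muscle genes. Between stressed archetypes, where 1.77% of all genes were called lower, vil1 of the 8 intestinal genes was lower in susceptible larvae (-0.84, SE 0.16, adjusted p = 0.0115). Without resilient stressed larvae 2 and 3 none of these passed, with sox3 at 0.45 (adjusted p = 0.0713), rx1 at 0.52 (adjusted p = 0.131), atoh7 at 0.81 (adjusted p = 0.167), sox2 at 0.24 (adjusted p = 0.134), pax7b at 0.50 (adjusted p = 0.166) and vil1 at -0.93 (adjusted p = 0.075). In that fit the estimates of sox2, sox3, rx1 and vil1 were farther from 0 than in the main fit, and those of atoh7 and pax7b nearer. Each had a larger SE, so a lost call did not always mean a smaller difference. Without larva 5 all 6 passed. The part of these tissues in the members' levels was not tested.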

How the data were processed

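RNA of 18 whole larvae was sequenced, and the authors deposited a table of raw counts per gene symbol with, per the file headers, their own log2 fold changes and adjusted p-values for 4 comparisons, which are coded as first group over second. The submitters' processing notes name cutadapt, STAR, DESeq2 and the build danRer11; the sources used here name no annotation, gene counter or strand setting, so overlapping and antisense genes cannot be told apart. A further 36 columns of normalized and transformed per-larva values were not used. From the 25281 rows, 15 that carry dates in place of symbols were left out, with 0.0613% to 0.0698% of the reads of a library. None of the 32 pairs of larvae within a group agreed within sampling noise (chi-square per degree of freedom at least 6.50).

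Raw counts, as deposited, were tested in R 4.3.3 with edgeR 4.0.16 (TMM factors, filterByExpr, glmQLFit and glmQLFTest) in 1 fit over the 4 groups, with p-values adjusted by Benjamini-Hochberg over 22038 genes and a threshold of 0.05. SE is the absolute log2 fold change divided by the square root of F. Scores used a prior count of 2. Alternatives were DESeq2 1.42.0, limma 3.58.1 voom with sample quality weights, DESeq2-style size factors in edgeR, other low-count filters, only the groups compared, replicate blocks, and leaving larvae out. Scripts were tested on simulated data. Members, role groups and lists were chosen with earlier results of these data known. Values in every larva are given for each member called and, in each role group, for the member with the highest mean CPM and the one with the smallest unadjusted p in any comparison; cenpl was added after its values were seen. Of 256 list entries 227 matched a row, a few by an older symbol in a RefSeq table of assembly GRCz12tu, and 215 passed the filter. The labels do not say whether numbers in the sample names pair larvae, and the main fit did not pair them. Depth limits the members with few reads, and p-values cover the spread between larvae only.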

Additional observations from a re-analysis of the deposited data

Results flagged for a closer look

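Sets of values, each of 1 gene in 1 group of larvae, were examined for an outlier, 64 in all. In 3 of them 1 larva lay farther from the rest of its group than Dixon's 95% critical value allows. Chance flags about 1 in 20 (5%) of separate sets. The members moved together from larva to larva, so the 64 sets were not separate observations. For aurka, resilient stressed larva 5 had 11.5 CPM where the other 4 had 4.50 to 6.49. For top2a, resilient basal larva 1 had 127 CPM where the other 3 had 68.7 to 72.8. For tpx2 the same larva had 70.4 CPM, and the other 3 had 39.6 to 43.1. No member's response to stress differed between the archetypes past the threshold.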

How the results depend on the processing

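With stress in resilient larvae the count of members called, 1 by edgeR, was 2 with DESeq2 and 3 with limma voom, and 0 with no filter on low counts, with only the groups compared in the fit, and without resilient stressed larvae 2 and 3; leaving out 1 larva gave 0 to 14. Between stressed archetypes it was 0 by edgeR, 2 with DESeq2 and 4 with limma voom, and 0 to 21 with 1 larva left out. Shares of all genes called under these alternatives are not set beside the counts. With the replicate block by either number in the sample names, 0 members were called for stress in resilient larvae, and cenpi stood at -1.04 (adjusted p = 0.0531) and -1.02 (adjusted p = 0.110). Same-numbered larvae had a mean correlation of deviations between -0.138 and 0.104, and the numbers were not used to pair larvae. The highest mean, for bracket numbers between stressed archetypes, stood beside -0.020 for different numbers. Whether the numbers mark pairs cannot be told from these few values. The other 3 comparisons kept 0 calls under every setting tried.

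Single estimates were followed for the 15 members given in every larva by rule, and among these, signs turned only where the estimate was not called. Only cenpi for stress in resilient larvae was called in the main fit, so this says little about how stable calls are. Other members turned as well: with 1 larva left out, 1 to 18 of the 53 were negative between basal archetypes and 38 to 52 for stress in susceptible larvae. Between basal archetypes kif14 stood at 0.031 with limma voom and 0.025 with the block by bracket number, and smc4 at 0.032 and 0.048 with the blocks by title and bracket number. Without resilient stressed larvae 2 and 3, ccnb3 stood at -0.24 between stressed archetypes, and the difference of response was -0.014 for ccna2, -0.043 for ttk, -0.023 for kif11, -0.068 for top2a and -0.16 for tpx2. With 1 larva left out the basal archetype difference ran from -0.082 to 0.25 for aurka, -0.11 to 0.18 for cenpi, -0.21 to 0.28 for kif14, -0.079 to 0.19 for plk4 and -0.14 to 0.22 for smc4. Stress in susceptible larvae gave -0.32 to 0.036 for aurka, -0.18 to 0.0090 for bub3, -0.33 to 0.014 for ccna2, -0.19 to 0.093 for cenpi, -0.0096 to 0.33 for kif14, -0.20 to 0.0023 for plk4 and -0.29 to 0.0085 for smc4. For ccnb3 stress in resilient larvae gave -0.087 to 0.52, and for tpx2 the difference of response ran from -0.050 to 0.53. The cause of these changes was not tested. Low counts limit ccnb3 and the other members with few reads, and 4 or 5 larvae a group limit all.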
